A study of Rattus norvegicus with 4 samples.

Results

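The genes described here are 3 metallothioneins, a metal-sensing transcription factor and 6 zinc transporters: Mt1, Mt2A, Mt3, Mtf1, Slc30a1, Slc30a4, Slc30a5, Slc39a1, Slc39a8 and Slc39a14. They were found through the RefSeq accession that each non-control probe of the array carries. All 10 genes were measured, by 12 probes on 30 spots, among 16581 named genes. The samples were 4 biological replicates of NR8383, an established macrophage line that was derived from the airways of a normal rat by lavage. The cells had gone through 20 passages and were kept in flasks for 48 h, and all 4 replicates received amino-functionalized carbon nanotubes (NRCWE049) at 1.2 cm²/cm² for 4 h. They form 1 group. Unexposed control arrays were not analysed here, so the values describe exposed cells only, and an effect of the nanotubes cannot be read from them.

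Metallothioneins are small proteins rich in cysteine that bind zinc, copper and cadmium. The broadly expressed members are switched on by MTF1, a zinc finger protein that senses free zinc and binds metal response elements in promoters. The cytosolic level of zinc is set by both transporter families: ZnT proteins (Slc30) move zinc out of the cytosol to the outside or into organelles, and ZIP proteins (Slc39) move it in. Macrophages use these proteins to buffer zinc and to shift it to or from phagosomes.

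The signals were read from 4 one-colour arrays on 1 slide. The 75th percentile of the detected probes lay at a processed signal between 1970 and 2493, and the median of the 308 negative control spots between 4.03 and 4.60. Of 10 measured macrophage markers 8 were detected on every array (not Marco and Adgre1). Of 13 measured markers of epithelium, fibroblasts, lymphocytes and neutrophils 1 was detected, S100a8. Over all named genes 52.5% were detected on every array.

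The metal response element was looked for in the promoters, because it is the sequence through which MTF1 acts on Mt1, Mt2A and Slc30a1. The core was searched on both strands as TGCACNC and TGCGCNC in the 250 bases before each gene start, in RefSeq sequences of the GRCr8 assembly, which had an entry for 9 of the 10 genes (not Slc39a14). The promoters of Mt1 (chr19:10832976-10833225, minus strand), Mt2A (chr19:10838709-10838958, minus strand) and Slc30a1 (chr13:106021769-106022018, plus strand) are shown 5′ to 3′ in the direction of the gene. Capitals mark the core on either strand.
Mt1: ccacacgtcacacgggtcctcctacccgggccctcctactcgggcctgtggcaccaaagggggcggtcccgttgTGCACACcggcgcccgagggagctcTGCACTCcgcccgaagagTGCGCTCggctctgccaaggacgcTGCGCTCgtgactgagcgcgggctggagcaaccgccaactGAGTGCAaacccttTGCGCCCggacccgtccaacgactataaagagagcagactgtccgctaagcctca
Mt2A: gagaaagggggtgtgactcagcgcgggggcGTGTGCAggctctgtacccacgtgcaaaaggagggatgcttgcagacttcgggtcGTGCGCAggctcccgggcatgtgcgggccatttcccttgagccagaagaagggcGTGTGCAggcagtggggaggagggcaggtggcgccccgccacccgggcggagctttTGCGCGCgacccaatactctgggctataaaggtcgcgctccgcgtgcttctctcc
Slc30a1: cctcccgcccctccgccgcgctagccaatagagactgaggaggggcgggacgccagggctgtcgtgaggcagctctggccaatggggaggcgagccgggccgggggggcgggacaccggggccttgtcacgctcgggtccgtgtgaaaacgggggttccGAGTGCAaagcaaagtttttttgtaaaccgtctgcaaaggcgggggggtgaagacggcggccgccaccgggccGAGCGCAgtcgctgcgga

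The Mt1 promoter held 6 matches, 5 of them on the strand of the gene, at positions from -176 to -55 relative to the start. The Mt2A promoter held 4 matches, of which 1 was on the strand of the gene. The Mt3 promoter held 3. Mtf1, Slc30a1, Slc30a4 and Slc30a5 held 2 each, and in Slc30a5 these 2 overlapped. Slc39a1 held 1 and Slc39a8 held 0. Among 33469 RefSeq promoters of the same length, 20.6% held at least 1 match, 4.9% at least 2, 1.17% at least 3, 0.266% at least 4 and 0.0269% at least 6. The promoters of the 9 genes were between 59.2% and 82.0% G and C, against a median of 51.2% over all promoters, and the part of base composition in these counts was not tested. A match is a run of letters and no measured binding. On chromosome 19, RefSeq lists no other gene between Mt1, Mt2A and Mt3.

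**Figure D1:**
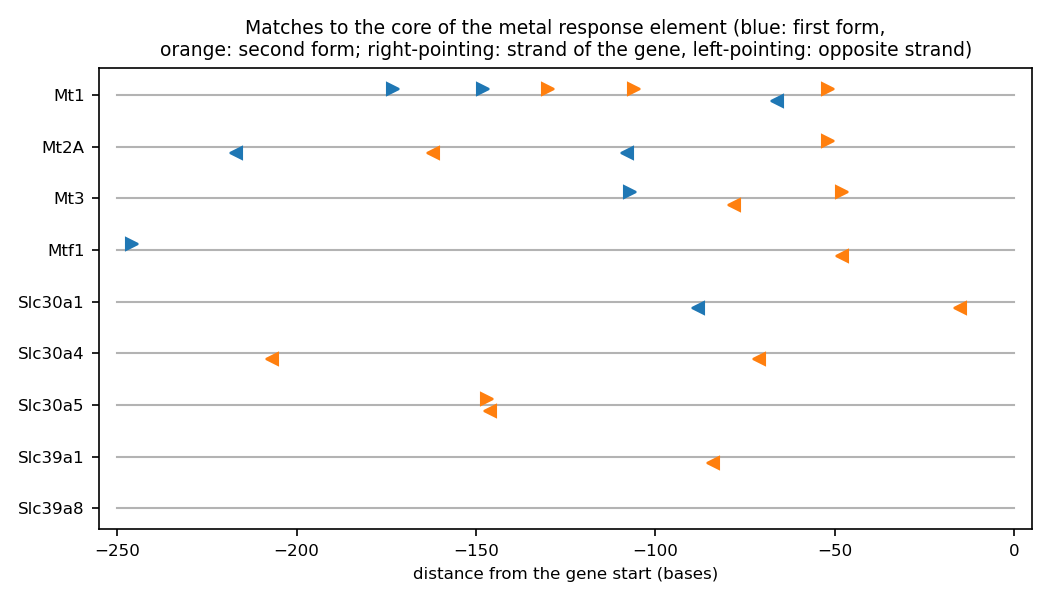
Position of each match to the metal response element core (x axis, bases before the gene start, where 0 is the start) in 9 promoters (rows). Blue triangles are TGCACNC and orange triangles TGCGCNC; those pointing right lie on the strand of the gene and those pointing left on the opposite strand. Mt1 has 6 matches, Mt2A 4 and Slc39a8 0.

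Of the 10 genes, 7 gave a signal well above background on 4 of 4 arrays: Mt1, Mtf1, Slc30a1, Slc30a5, Slc39a1, Slc39a8 and Slc39a14. Over all named genes this share was 52.5%. Mt2A, Mt3 and Slc30a4 reached that mark on 0 of 4 arrays. A gene counted as detected where at least 1 of its probes was flagged by Agilent's software as well above background on all 4 arrays. Of the 12 probes, 8 met this rule.

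**Figure D2:**
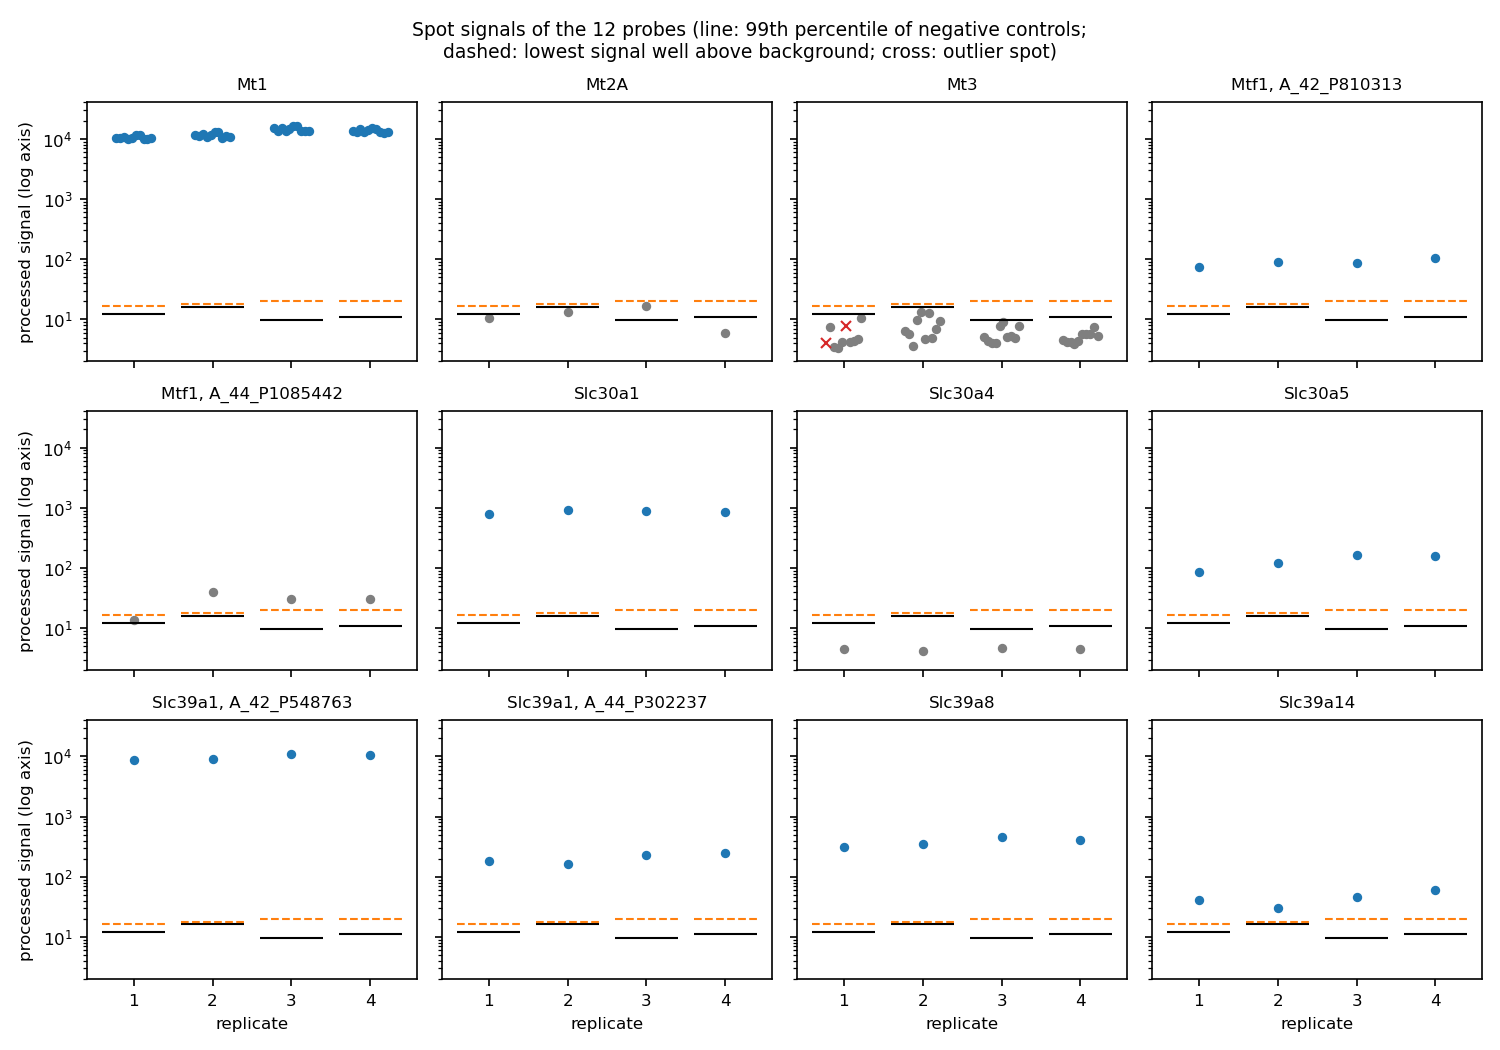
Processed signal (y axis, log scale) of every spot of the 12 probes in replicates 1 to 4 (x axis); Mt1 and Mt3 have 10 spots per array, the others 1. Blue probes were detected on all arrays and grey ones were not; the black line is the 99th percentile of the negative controls of that array, the dashed line the lowest signal flagged well above background, and a red cross is a spot flagged as an outlier. The Mt1 spots lie between 9773 and 16110 on the 4 arrays, while Mt2A, Mt3 and Slc30a4 lie below the dashed line of the same array.

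Mt1, the broadly expressed zinc-buffering metallothionein, gave a strong signal on every array. Its probe was printed on 10 spots per array, and their geometric mean was 10467, 11502, 14485 and 13622 in replicates 1 to 4, which is 856, 708, 1510 and 1240 times the 99th percentile of the negative controls of the same array. Before scaling, replicates 3 and 4 were thus brighter than the other 2, with a highest to lowest ratio of 1.38. The 75th percentile of the arrays moved the same way. After scaling to it, on the log2 scale, the Mt1 level was 2.41, 2.54, 2.54 and 2.50, a mean of 2.50 ± 0.06 (SD, n = 4), and the highest replicate exceeded the lowest by 1.09-fold. Replicates 2 to 4 lay close together and replicate 1 was the lowest.

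The 10 Mt1 spots show how closely the spots of 1 bright probe lay together. Within an array their log2 signals had an SD between 0.082 and 0.107, so the mean of an array carried a standard error between 0.026 and 0.034 from the spots. Between the 4 array means the SD was 0.061, above this standard error. Their 1.09-fold range lies within the signal error of 10% that Agilent gives for each spot. The spread among spots of 1 array is not the error of 1 spot followed between arrays. The order of the spots recurred between arrays: 3 spots were above the array mean on all 4 arrays and 5 were below it on all 4. All 10 spots had their lowest scaled level in replicate 1. The spots of an array share 1 RNA sample and 1 scaling value, so they are not further replicates. The Mt3 probe, also on 10 spots but near background, had a log2 spot SD of 0.569, 0.640, 0.428 and 0.296 in replicates 1 to 4. The Mt1 spread therefore does not describe dimmer probes. Most other probes of these genes sit on 1 spot, for which no such check exists.

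Mt2A, the second broadly expressed metallothionein, was measured by 1 probe on 1 spot, and the spot was not well above background in any replicate. Its processed signal was 10.7, 13.3, 16.6 and 6.001 in replicates 1 to 4. It passed the 99th percentile of the negative controls in replicate 3 (1.73 times that percentile) and not in the others (0.873, 0.821 and 0.545 times). Agilent's looser flag for positive and significant signal held on all 4 arrays, so that rule would count Mt2A as detected. The error that Agilent gives for the signal was between 28.0% and 73.1% of it. The levels in single replicates therefore carry no usable order. The files hold no second Mt2A probe with a matched accession, so a weak probe and a low transcript cannot be told apart.

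Mt3, a metallothionein known from neurons and astrocytes, had 10 spots per array, and 0 of them were well above background on any array. The spot means were 4.90, 7.09, 5.51 and 5.04, between 0.400 and 0.573 times the 99th percentile of the negative controls. The brightest of the Mt3 spots reached 13.4, in replicate 2. Of the 10 spots, 4, 8, 5 and 3 carried the looser flag in replicates 1 to 4. Mt4, the metallothionein of stratified epithelium, was added for the family and was likewise detected on 0 arrays. Of 4 measured metallothionein genes, 1 was detected.

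Mtf1 was detected by 1 of its 2 probes. The first (A_42_P810313) gave 74.7, 90.1, 85.6 and 106 in replicates 1 to 4, between 5.54 and 9.68 times the 99th percentile of the negative controls. Its scaled level was -4.72, -4.46, -4.86 and -4.50, a mean of -4.63 ± 0.19 (SD, n = 4), lowest in replicate 3. The second probe (A_44_P1085442) gave 13.5, 39.6, 30.2 and 30.5 and was well above background in replicates 2 to 4 and not in replicate 1. After scaling both probes were highest in replicate 2, and their lowest replicates differed. The signal error of the second probe was 37.9% in replicate 1 and between 15.3% and 19.6% in the others. Around this spot in replicate 1, the 51 detected spots within 5 rows and columns had a median log2 deviation of 0.154 from the other arrays.

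Slc30a1 (ZnT1) exports zinc through the plasma membrane and is itself a known target of MTF1. It gave 774, 934, 868 and 866 in replicates 1 to 4, between 57.5 and 90.4 times the 99th percentile of the negative controls. The scaled level was -1.35, -1.08, -1.52 and -1.47, a mean of -1.36 ± 0.20 (SD, n = 4). Replicate 2 was the highest, and the highest exceeded the lowest by 1.35-fold. Before scaling the ratio was 1.21, because the array percentile was lower in replicates 1 and 2. Mt1 was lowest in replicate 1 and Slc30a1 in replicate 3. Neither gene passed the variance test given below, so this order carries little. A shared response to MTF1 was not tested.

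Slc30a5 (ZnT5) loads zinc into the early secretory pathway, in a complex with the product of Slc30a6. Its signal was 84.8, 121, 166 and 160 in replicates 1 to 4. The scaled values were -4.54, -4.04, -3.91 and -3.91, a mean of -4.10 ± 0.30 (SD, n = 4), with a highest to lowest ratio of 1.54. Replicate 1 stood below the other 3. The 50 detected spots around it had a median deviation of 0.022 there. Its partner gene Slc30a6 was detected with a level of -1.38 ± 0.08 and was highest in replicate 1. Slc30a4 (ZnT4), a transporter of endosomes and secretory vesicles, was at 4.55, 4.24, 4.75 and 4.53. These values lie near the median of the negative controls, and its signal error was about 100% of the signal in each replicate.

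Slc39a1 (ZIP1), an importer of the plasma membrane that many cell types express, had 2 probes and both were detected. The brighter probe (A_42_P548763) gave 8688, 8912, 10948 and 10579 in replicates 1 to 4. Its scaled level was 2.14, 2.17, 2.13 and 2.14, a mean of 2.15 ± 0.02 (SD, n = 4), and the replicates spanned 1.02-fold. The second probe (A_44_P302237) gave 180, 161, 233 and 244, with a scaled level of -3.45 ± 0.13 and a highest to lowest ratio of 1.25. The second probe was lowest in replicate 2, where the first was highest. The SD of the brighter probe rose to 0.059 with another background correction (normexp on the median spot signal). Single Mt1 spots followed over the 4 arrays had an SD of the scaled level between 0.023 and 0.09. This includes any change of Mt1 itself.

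Slc39a8 (ZIP8) carries zinc, manganese and cadmium and is known to be induced by NF-kB in monocytes and macrophages. It gave 308, 353, 457 and 404 in replicates 1 to 4. The scaled level was -2.67, -2.49, -2.45 and -2.57, a mean of -2.55 ± 0.10 (SD, n = 4), lowest in replicate 1, with a ratio of 1.17 between the highest and the lowest replicate. Slc39a14 (ZIP14), which imports zinc, manganese and iron not bound to transferrin, was between 1.88 and 5.45 times the 99th percentile of the negative controls. Its signal was 41.7, 30.6, 46.4 and 59.9, and the scaled level -5.56, -6.02, -5.75 and -5.33, a mean of -5.66 ± 0.29 (SD, n = 4). Replicate 4 was the highest and replicate 2 the lowest, a ratio of 1.61. The error that Agilent gives for this signal was between 13.3% and 18.7% of it.

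**Figure D3:**
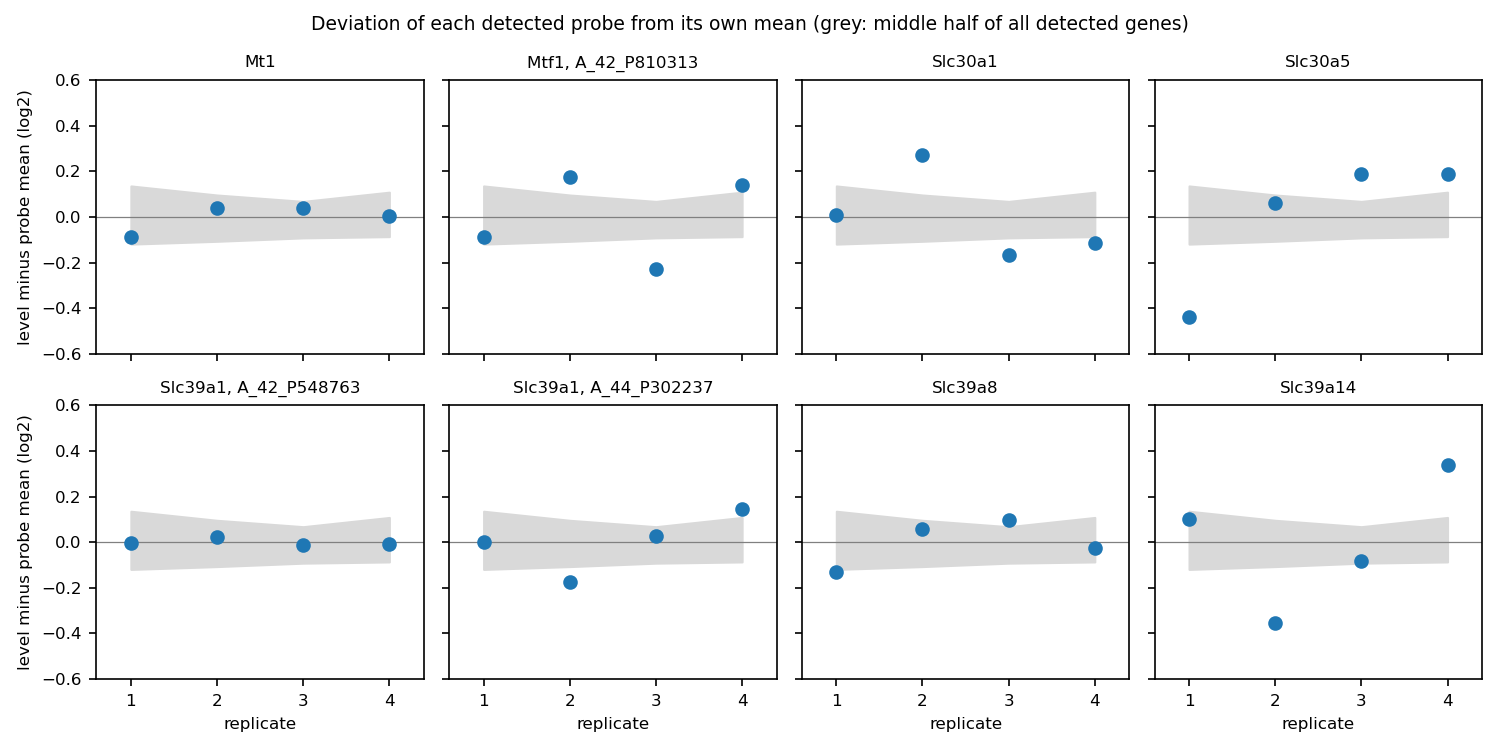
Scaled level of each of the 8 detected probes minus its own mean (y axis, log2 units) in replicates 1 to 4 (x axis); the grey band runs from the lower to the upper quartile of all detected genes. Mt1 and the brighter Slc39a1 probe stay within about 0.1 of their means, Slc30a5 is at -0.437 in replicate 1, and Slc39a14 runs from -0.354 in replicate 2 to 0.337 in replicate 4.

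Whether any of these genes varied between replicates more than genes of like brightness was asked with an F test on the residual variances of a limma fit, adjusted by Benjamini-Hochberg over 8713 detected genes. Of the 7 detected genes, 0 passed an adjusted p under 0.05, and 0 passed at an unadjusted p under 0.05 (limma). Over all detected genes 0.0115% passed the first threshold and 4.30% the second. Adjusted p-values ran from 0.969 for Slc30a1 and Slc30a5 to 0.9996 for Slc39a1. Their SDs ran from 0.016 to 0.297, with a median of 0.192 against 0.151 over all detected genes. Slc30a1, Slc30a5 and Slc39a14 lay above the SD expected at their level (0.145, 0.211 and 0.254), and the other 4 below it, with Mt1 at 0.061 where 0.113 was expected. Of all detected genes 46.6% lay above. None of the 7, each taken at its brightest detected probe, spanned more than 2-fold, as 2.66% of all detected genes did. The second Mtf1 probe, which was not tested, spanned 2.92-fold (SD 0.633). A p above the threshold does not show equal spread.

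**Figure D4:**
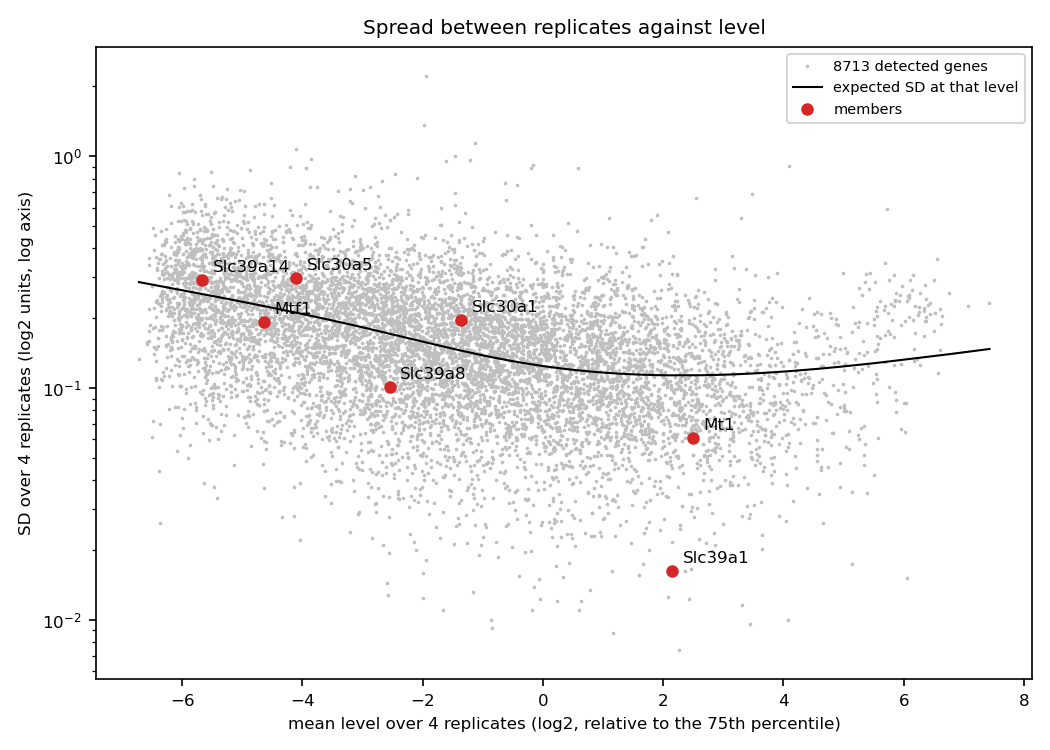
SD over the 4 replicates (y axis, log scale) against the mean level (x axis, log2 relative to the 75th percentile) for 8713 detected genes in grey and the 7 detected genes of the set in red; the black line is the SD that limma expects at that level. Slc30a5 and Slc30a1 lie above the line, and Slc39a1 (SD 0.016) and Mt1 (SD 0.061) below it.

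The lowest and the highest replicate were counted over the 7 detected genes, none of which passed the variance test. Replicate 1 was lowest for 3 of them (Mt1, Slc30a5 and Slc39a8), replicate 3 for 3 (Mtf1, Slc30a1 and Slc39a1) and replicate 2 for 1 (Slc39a14), where over all detected genes 28.5%, 27.4%, 20.4% and 23.7% were lowest in replicates 1 to 4. Replicate 2 was highest for 3 (Mtf1, Slc30a1 and Slc39a1), and replicates 3 and 4 for 2 each, where over all detected genes the shares were 34.6%, 24.8%, 15.9% and 24.7%. The Slc39a1 range of 0.036 is within Agilent's signal error of 10.0%, so its order carries little. The median deviation of the 7 genes was -0.086, 0.056, -0.012 and 0.006 in replicates 1 to 4, against 0.016, -0.010, -0.014 and 0.005 over all detected genes. With 4 arrays no correlation between these genes was computed. The detected genes nearest to Mt1, by root mean square difference of their deviations over 4 samples, were Ormdl1 (0.00252), Ndufb3 (0.00525) and RT1-T24-3 (0.00685). The median difference from Mt1 over the detected genes was 0.146, and 466 genes lay within 0.05. Mt1 varied little (SD 0.061), so a gene with little spread lies near it whatever its order. Shared regulation was not tested.

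The remaining transporters of both families were detected in part. Of 10 measured ZnT genes 6 were detected, and of 12 measured ZIP genes 11, beside 52.5% of all named genes; the difference between the families was not tested. The ZnT genes outside the set were Slc30a3, Slc30a6, Slc30a7 and Slc30a9, all detected, and Slc30a2, Slc30a8 and Slc30a10, which were well above background on no array. Slc30a8 is known for loading zinc into insulin granules. Slc30a3, known for filling synaptic vesicles with zinc, had a level of -1.90 ± 0.09 (SD, n = 4). Of the ZIP genes outside the set, Slc39a2 (-1.82 ± 0.13), Slc39a3 (0.84 ± 0.10), Slc39a4, Slc39a5, Slc39a6, Slc39a7, Slc39a9 and Slc39a11 were detected. Slc39a12 was well above background on 3 of 4 arrays and so was not counted.

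Copper handling genes and other divalent metal transporters were counted the same way, beside 52.5% of all named genes detected. These lists are small, and a difference from that share was not tested. Of 9 copper genes 7 were detected: Slc31a2 (1.84 ± 0.10, SD, n = 4), the copper-pumping ATPases Atp7a and Atp7b, the copper chaperones Atox1, Ccs and Cox17, and Commd1. Slc31a1, the main copper importer of the plasma membrane, was detected on 0 arrays, on 1 probe; Mt4 was the other copper-list gene not detected. Slc11a1 (NRAMP1), the phagosomal transporter of iron and manganese in macrophages, had a level of 1.20 ± 0.28, and Slc11a2 (DMT1), the endosomal iron importer, -0.58 ± 0.21. Of the 21 detected genes on these lists outside the set, 0 passed the variance test at an adjusted p under 0.05 (limma, adjusted p from 0.969 to 0.999), and 2 had an unadjusted p under 0.05, as did 4.30% of all detected genes.

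**Figure D5:**
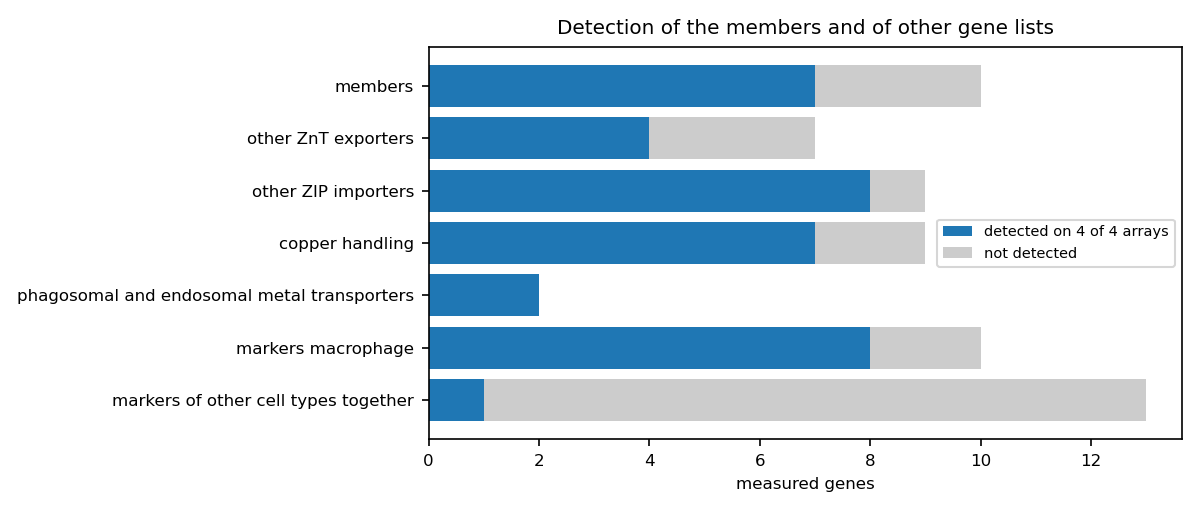
Number of measured genes (x axis) in each list (rows) that were well above background on 4 of 4 arrays (blue) or not (grey). Of the set itself 7 of 10 genes were detected, of the other ZIP importers 8 of 9, of the other ZnT exporters 4 of 7, and of the markers of other cell types 1 of 13. Over all named genes the share was 52.5%.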

How the data were processed

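RNA from 4 exposed NR8383 samples (integrity number above 7.5; 100 ng labelled with Cy3, per the labels' protocols) was hybridised to 4 one-colour Agilent arrays on 1 slide, all scanned in 1 run per the file headers, which leaves no slide or scan batch to test. The deposited intensity is Agilent's processed signal (background-subtracted and detrended). Per the submitters' processing notes it comes from Agilent Feature Extraction, version 11.0.1.1; the sources used here do not give any normalization between arrays. The deposited flags are other 0 or 1 values per spot.

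Control spots and outlier spots (nonuniform or population flags) were dropped, replicate spots were averaged as log2, and no spot was saturated. Because 39.3% of 45598 probes were detected, levels were log2 signals minus the 75th percentile over these probes. Accessions were matched without versions to RefSeq symbols (GRCr8, another assembly than in the file headers); 21109 probes were named, and a probe with another kind of identifier was not used here. A gene took its brightest detected probe. No comparison between groups was possible. The variance test used limma 3.58.1 in R 4.3.3 (intercept fit, 3 residual degrees of freedom, threshold 0.05). It was also run on simulated data, and no outcome of that run is used here. The tables were loaded in R (data.table version 1.17.8). Members, lists and tests were chosen with earlier results of these data known; named genes are all members, the first 2 genes of each other list with values, and the 3 detected genes nearest to Mt1. Slc30a6 and Atp7a fall outside this rule, being picked once their values were known. The number of arrays limits the precision. Alternatives were other detection rules, scalings, background correction, outlier treatment, dim areas, probe choice, filters, variance models and leaving out each replicate.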

Additional observations from a re-analysis of the deposited data

How the results depend on the processing

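The count of 7 detected genes lay between 6 and 8 under all detection rules tried, and leaving out any replicate gave 7. The positive and significant flag added Mt2A, with 61.7% of all named genes detected. Requiring all probes of a gene removed Mtf1, with 47.7% of all named genes detected. In the reported setting that share was 52.5%. The number of these genes called variable was 0 under all 11 alternatives, with the lowest adjusted p between 0.824 and 0.991 (limma F test). Over all genes the number called variable, 1 in the reported setting, was 9 with the 75th percentile over all probes, 4 with outlier flags ignored, and 0 with quantile normalization, without dim neighbourhoods, with no filter on dim probes and with no intensity trend; leaving out 1 replicate gave 0 (replicate 1 or 2) to 9 (replicate 3 or 4). Levels moved by more than their SD for 10 of 12 probes with normexp and for 12 of 12 with the percentile over all probes, which shifts all levels alike, and for 0 of 12 with quantile normalization. The largest number of detected members that shared a lowest array was 3 in the reported setting and 3 or 4 under the 8 alternatives run. Where 1 replicate was left out, 7 genes over 3 arrays cannot give less than 3, so those settings test nothing here. No spot of these genes lay in a dim neighbourhood. Naming by a gene name column was not run because the files have no such column, and normexp does not alter the detection flags. No paired analysis was possible because there is 1 group. Single spots with signals near the negative controls limit Mt2A, Slc30a4 and the second Mtf1 probe.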

Other observations

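Among the 21 detected metal genes outside the set, Atp7a and Slc11a1 had an unadjusted p under 0.05 in the variance test, a threshold that 4.30% of all detected genes passed. Atp7a, the copper pump that loads phagosomes and the secretory pathway, was named after its values were seen. Its level was -2.99, -2.44, -1.94 and -2.07 in replicates 1 to 4 (adjusted p = 0.969, limma F test). The level of Slc11a1 was 1.43, 0.79, 1.33 and 1.26, lowest in replicate 2 (adjusted p = 0.969, limma F test). Dixon's ratio, which marks 1 replicate far from the rest, was taken for 9 sets of 4 values (8 detected probes and the median of the genes). Of these, 0 passed the cutoff used. The highest ratios were 0.8169 for the brighter Slc39a1 probe (replicate 2) and 0.7994 for Slc30a5 (replicate 1). Both lay only a little under that cutoff, so the count of 0 depends on it.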
